A study of Homo sapiens with 8 samples.

Results

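Histone genes were followed in Kasumi-1 cells, an acute myeloid leukemia line that carries the AML-ETO fusion, after the orphan nuclear receptor NR4A1 had been put back. A gene was taken as a member by its symbol alone: the clustered H1, H2A, H2B, H3 and H4 genes and a named set of variant histones, with pseudogenes left out. Of 19775 genes measured on the array, 53 were members. They comprised 42 replication-dependent genes (5 H1, 8 H2A, 14 H2B, 7 H3 and 8 H4), 8 variant genes (H2AZ1, H2AZ2, H2AX, H2AJ, MACROH2A1, MACROH2A2, H3-3A and H1-10) and 3 linker histone genes known from germ cells (H1-6, H1-7 and H1-8). Of the 53, 40 lie on chromosome 6.

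Cells were electroporated with in vitro transcribed RNA and total RNA was taken 6 h later. The RNA encoded wild type NR4A1 (NR4A1 WT, 3 arrays), NR4A1 mutated in its DNA binding domain (NR4A1 CEAA, 2 arrays) or GFP as the control (3 arrays). All groups share the AML-ETO background and the electroporation, and every array comes from the same cell line. The NR4A1 RNA was made from a plasmid with the NR4A1 coding sequence and given a poly(A) tail. The arrays were Affymetrix U133 Plus arrays for human genes, and a value here is a log2 intensity.

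Histones package DNA into nucleosomes, each built of a pair of each core histone, while linker histones bind the DNA between them. Replication-dependent genes make the bulk of histone protein in S phase. Their genes sit in clusters, and their messages end in a stem-loop bound by SLBP instead of a poly(A) tail. Variant histones replace the bulk proteins at chosen places throughout the cell cycle, and most of their messages, though not all, carry a poly(A) tail. Standard Affymetrix labeling primes from poly(A) tails, so the signal of a tailless message is not a measure of its amount.

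The promoters of the members show how different the classes are in sequence, and 6 of them are printed because their genes carry the changes described below. RefSeq (GRCh38.p14) lists a window of 250 bases before and 50 after the transcription start for 50 of the 53 members, and the first listed window was used where a gene has several (4 for H3-3A, 2 for MACROH2A1). The windows lie at chr1:226061581-226061880 (plus strand) for H3-3A, chr3:129316237-129316536 (minus) for H1-10 and chr5:135399182-135399481 (minus) for MACROH2A1. Those of the clustered genes lie at chr6:27807880-27808179 (minus) for H2BC13, chr6:26183511-26183810 (plus) for H2BC6 and chr6:27823842-27824141 (plus) for H4C11. Capitals mark matches, on either strand, to the CCAAT box, the TATA box, the octamer or the NBRE, whose letters are spelled out after the sequences, and none of these matches overlap in the windows shown.
H3-3A: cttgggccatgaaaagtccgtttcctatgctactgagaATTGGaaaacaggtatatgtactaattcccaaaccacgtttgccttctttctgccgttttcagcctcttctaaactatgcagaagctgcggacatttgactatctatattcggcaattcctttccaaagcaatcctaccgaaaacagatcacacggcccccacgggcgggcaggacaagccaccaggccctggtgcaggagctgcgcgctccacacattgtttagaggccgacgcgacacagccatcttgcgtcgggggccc
H1-10: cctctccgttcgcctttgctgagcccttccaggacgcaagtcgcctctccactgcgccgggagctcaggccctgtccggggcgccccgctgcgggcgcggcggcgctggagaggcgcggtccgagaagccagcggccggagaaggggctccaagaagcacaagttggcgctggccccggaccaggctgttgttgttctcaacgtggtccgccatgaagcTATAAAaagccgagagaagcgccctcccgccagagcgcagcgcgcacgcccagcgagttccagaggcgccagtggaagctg
MACROH2A1: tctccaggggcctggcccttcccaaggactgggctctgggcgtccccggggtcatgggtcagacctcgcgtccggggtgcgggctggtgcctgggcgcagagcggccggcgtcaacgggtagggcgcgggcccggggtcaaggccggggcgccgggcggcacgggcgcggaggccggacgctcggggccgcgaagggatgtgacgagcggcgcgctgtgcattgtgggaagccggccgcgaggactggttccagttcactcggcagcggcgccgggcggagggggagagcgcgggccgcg
H2BC13: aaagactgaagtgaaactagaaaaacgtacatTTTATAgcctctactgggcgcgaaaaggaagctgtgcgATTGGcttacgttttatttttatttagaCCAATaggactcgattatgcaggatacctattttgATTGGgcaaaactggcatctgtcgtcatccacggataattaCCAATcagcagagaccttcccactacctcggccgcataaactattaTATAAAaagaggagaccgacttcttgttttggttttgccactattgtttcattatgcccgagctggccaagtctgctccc
H2BC6: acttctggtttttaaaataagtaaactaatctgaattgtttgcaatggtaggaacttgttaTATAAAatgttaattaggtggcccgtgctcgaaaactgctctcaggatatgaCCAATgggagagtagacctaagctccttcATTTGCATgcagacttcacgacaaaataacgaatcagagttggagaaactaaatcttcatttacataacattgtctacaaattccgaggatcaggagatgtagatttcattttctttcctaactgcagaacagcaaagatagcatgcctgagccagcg
H4C11: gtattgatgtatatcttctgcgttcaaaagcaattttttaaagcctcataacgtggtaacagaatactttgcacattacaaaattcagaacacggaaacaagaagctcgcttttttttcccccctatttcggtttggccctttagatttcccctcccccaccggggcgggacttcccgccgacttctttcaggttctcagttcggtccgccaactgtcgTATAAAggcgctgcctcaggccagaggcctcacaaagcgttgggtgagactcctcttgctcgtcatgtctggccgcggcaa

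CCAAT, the core of the CCAAT box, was found in 34 of 39 replication-dependent promoters (87.2%) and in 5 of 8 variant promoters (62.5%), against 35.7% of 27305 promoters in the table. By family, every replication-dependent H1, H2A, H2B and H3 promoter held it, but only 2 of 7 H4 promoters (28.6%). TATAAA, the TATA box, was found in 27 of the 39 (69.2%) and in 3 of the 8 (37.5%), against 12.0% of all promoters. The octamer ATTTGCAT, bound by POU factors and long known from H2B genes, was found in 10 of 13 H2B promoters (76.9%) and in 6 of 8 replication-dependent H2A promoters (75.0%). It had no match among the 8 variant, 5 H1, 6 H3 and 7 H4 promoters of those classes, and 1.8% of all promoters hold it. In H2BC6 it stands between a CCAAT match and the gene's start, whereas the window of H2BC13 holds 4 CCAAT and 2 TATAAA matches and no octamer. AAAGGTCA, the NBRE to which NR4A proteins bind as monomers, had no match in the 50 member windows and is in 1.21% of all promoters, which says only that these letters are not in these windows.

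The classes stood at different array levels. The mean log2 intensity over the 8 arrays ran over 3.09 to 8.24 in replication-dependent genes (median 4.33), 5.11 to 14.0 in variant genes (median 10.17) and 4.69 to 4.76 in the germ cell linker genes. The median of all probe sets lay between 4.755 and 4.802 in the 8 arrays, and 24 replication-dependent genes were at or below it in every array, whereas 16 of them and 7 of the 8 variants were above it in every array. A level at or below that median is not shown to be above background. Levels of different genes come from different probes and were not compared as amounts.

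The labels name Kasumi-1 cells. Of 8 listed myeloid blast markers 7 were measured, and all 7, RUNX1T1 of the fusion among them (11.07 to 11.61), were above the median in every array. Of 8 measured markers of other cell types, MS4A1, ALB and CDH5 were at or below it in every array, CD3E was mixed, and CD3D, HBB, COL1A1 and EPCAM (11.43 to 11.86) were above it. A level above the median therefore does not tell the cell types apart here. NR4A1 itself, by its brightest of 3 probe sets, read 6.54 ± 0.07 (SD, n = 3) with NR4A1 WT, 6.54 ± 0.03 (SD, n = 2) with NR4A1 CEAA and 6.45 ± 0.16 (SD, n = 3) with GFP, with limma adjusted p = 0.572 and 0.575 for WT and CEAA against GFP. Where those probes lie relative to the coding sequence is not known here, so this checks nothing about the group names. The SD of the differences between arrays of a group was 0.147 to 0.208 over all genes. Nothing states that replicates were separate cultures, so each p measures only the spread between these arrays. In bulk RNA a change in the share of cells in a state and a change in RNA per cell cannot be told apart.

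The first question was whether NR4A1 WT moves histone genes away from GFP. It moved few of them. In limma at an adjusted p under 0.05, 3 of 53 members passed (5.66%), 1 higher and 2 lower, against 20.3% of all genes, 9.97% higher and 10.3% lower. The median difference of the 42 replication-dependent genes was 0.04 and that of the 8 variants 0.03 on the log2 scale, beside 0.00 over all genes. Of the replication-dependent genes 2 passed (4.76%), and of the variants 1 (12.5%). Many members were dim: among the 25 left by a filter on dim probe sets 5 passed (20.0%), against 36.2% of all genes so filtered.

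H4C11, one of the many genes that encode the same H4 protein, was the member that rose. Its probe set is of the _x_at kind, whose probes may match several transcripts, so the signal may not be its alone. H4C11 read 7.21, 7.27 and 7.11 with NR4A1 WT, against 6.92, 6.78 and 6.96 with GFP. The 3 NR4A1 WT arrays were all higher than the 3 GFP arrays, and the difference was 0.31 ± 0.07 (SE, 1.24-fold, limma adjusted p = 0.0118).

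H2BC13, a replication-dependent H2B gene, fell. It read 4.59, 4.75 and 4.88 with NR4A1 WT, against 5.38, 5.30 and 5.07 with GFP, and the groups did not overlap. The difference was -0.51 ± 0.12 (SE, 1.42-fold lower, limma adjusted p = 0.0193), at a level close to the array median. Without NR4A1 WT replicate 1, GFP replicate 1 or GFP replicate 2, the adjusted p was 0.0622, 0.07 and 0.0661, and the members called were then 3 higher, 2 higher and 1 higher, with none lower.

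MACROH2A1 was the variant that fell. It encodes macroH2A1, an H2A with a large globular domain that is enriched on the inactive X and in silent chromatin. Its brightest probe set read 13.05, 13.04 and 13.01 with NR4A1 WT, against 13.19, 13.21 and 13.22 with GFP. The arrays of each group lay within a narrow band with no overlap, and the difference was -0.17 ± 0.05 (SE, 1.13-fold lower, limma adjusted p = 0.033). The call was lost when any 1 of the 8 arrays was left out, with adjusted p of 0.0507 to 0.105.

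The other variants did not pass against GFP. H2AZ2, which with H2AZ1 encodes H2A.Z, the variant that flanks active promoters, read 12.37, 12.45 and 12.43 with NR4A1 WT, against 12.24, 12.22 and 12.29 with GFP. All NR4A1 WT arrays were above all GFP arrays, and the difference of 0.17 ± 0.05 (SE) missed the threshold (limma adjusted p = 0.0554). MACROH2A2, the dimmest variant and the macroH2A paralog, read 4.96, 4.40 and 5.29 with NR4A1 WT, against 5.36, 5.26 and 5.36 with GFP. Its values scattered widely under NR4A1 WT, its difference of -0.45 ± 0.19 (SE) had limma adjusted p = 0.151, and the adjusted p was 0.0229 without NR4A1 WT replicate 3. H2AZ1, H2AX, H2AJ, H3-3A and H1-10 had differences of 0.00 to 0.09, and the 95% interval for H2AZ1, the brightest member, was -0.10 to 0.13.

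The second question was what the DNA binding mutant does against the same GFP arrays. H3-3A, H1-10, H2AZ2 and H2AJ were lower by their brightest probe sets, and the last pair not by all of theirs. In limma 8 of 53 members passed (15.1%), 2 higher and 6 lower, against 19.2% of all genes, of which 7.14% were higher and 12.1% lower. By class, 4 of 42 replication-dependent genes passed (9.52%) and 4 of 8 variants (50.0%), all 4 variants lower. The median difference was -0.02 in the replication-dependent genes and -0.27 in the variants, beside -0.03 over all genes. Among the 25 members past the filter on dim probe sets 11 passed (44.0%), against 36.9% of all genes so filtered. The 25 hold all 8 variants, of which 6 passed in that fit, 5 of them lower.

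H3-3A had the largest change of the 53. It encodes the H3 variant deposited at active genes, enhancers and telomeres outside S phase, and its partner H3-3B had no probe set of its own here. It read 6.73 and 6.40 with NR4A1 CEAA, against 7.19, 7.19 and 7.31 with GFP. Both NR4A1 CEAA arrays were below every GFP array. The difference was -0.66 ± 0.11 (SE, 1.58-fold lower, limma adjusted p = 0.00609), and of all genes 1.3% had a larger one.

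H1-10, a replication-independent linker histone, read 8.46 and 8.37 with NR4A1 CEAA, against 8.91, 8.88 and 8.95 with GFP. The groups were far apart relative to the spread within each, and the difference was -0.50 ± 0.07 (SE, 1.42-fold lower, limma adjusted p = 0.00292). The calls of H3-3A and H1-10 were kept under every limma alternative that could be run on them. Both genes have an _s_at probe set only, so the alternative without such sets could not be fitted for them.

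H2AZ2 read 11.97 and 11.91 with NR4A1 CEAA, against 12.24, 12.22 and 12.29 with GFP. It was lower in both arrays by -0.31 ± 0.06 (SE, 1.24-fold, limma adjusted p = 0.00816), with adjusted p = 0.0661 without NR4A1 CEAA replicate 2. Without _x_at and _s_at probe sets, whose probes may match several transcripts, another probe set stands for the gene and gave 0.26 (limma adjusted p = 0.0674), and the mean of the gene's probe sets gave -0.07 (limma adjusted p = 0.382). Its paralog H2AZ1 read 14.04 and 14.01 with NR4A1 CEAA, against 14.01, 13.99 and 13.97 with GFP, with a 95% interval of -0.09 to 0.16 for the difference.

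H2AJ, an H2A variant known to accumulate in senescent human fibroblasts, read 8.82 and 8.97 with NR4A1 CEAA, against 9.27, 9.24 and 9.28 with GFP. The difference was -0.37 ± 0.10 (SE, 1.29-fold lower, limma adjusted p = 0.0338). This call was lost when either NR4A1 CEAA array (adjusted p = 0.208 and 0.0755) or any GFP array (0.0728 to 0.088) was left out. Without _x_at and _s_at probe sets the difference was 0.08 (limma adjusted p = 0.693). That value comes from a probe set with a mean of 4.41, below the array median and not shown to be above background.

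H2AX, whose phosphorylation marks DNA breaks, read 10.98 and 11.03 with NR4A1 CEAA, against 11.14, 11.18 and 11.20 with GFP. Its difference of -0.17 ± 0.06 (SE) did not pass (limma adjusted p = 0.07). MACROH2A1 ran the other way, at 13.38 and 13.33 with NR4A1 CEAA, against 13.19, 13.21 and 13.22 with GFP, a difference of 0.14 ± 0.05 (SE) that did not pass either (limma adjusted p = 0.0917). MACROH2A2 differed by -0.22 ± 0.21 (SE, limma adjusted p = 0.526).

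**Figure D1:**
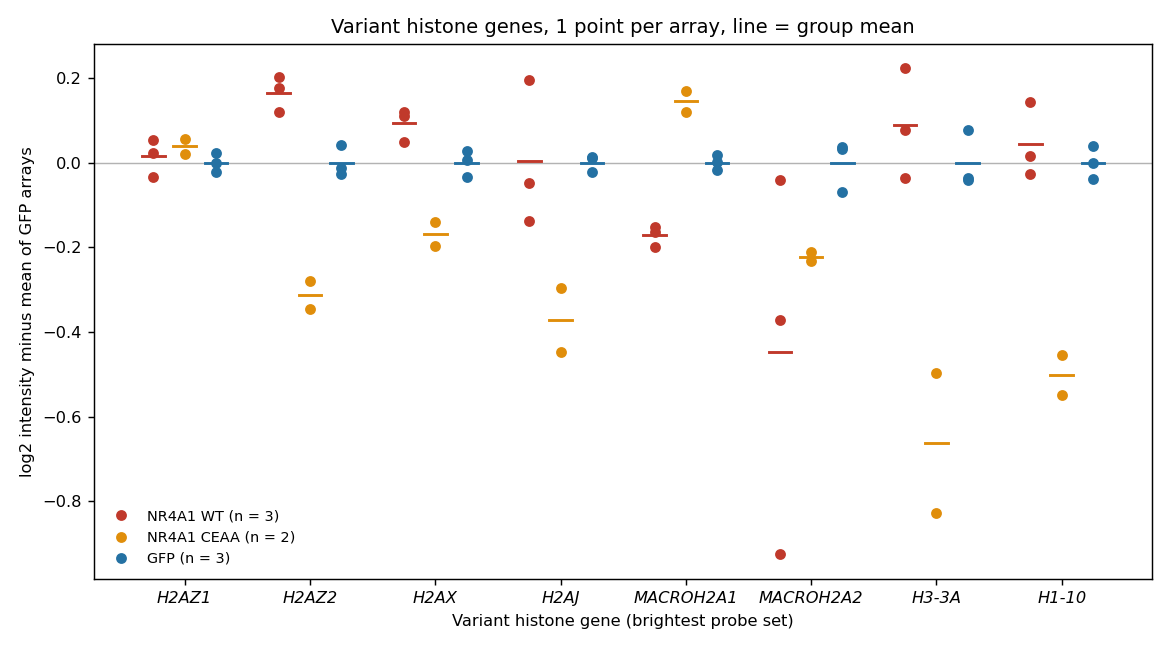
Log2 intensity minus the mean of the GFP arrays for the 8 variant histone genes, 1 point per array with the group mean as a line, for NR4A1 WT (n = 3), NR4A1 CEAA (n = 2) and GFP (n = 3). The NR4A1 CEAA means for H3-3A and H1-10 lie at -0.66 and -0.50, whereas that for MACROH2A1 lies above GFP at 0.14 and its NR4A1 WT mean below GFP at -0.17.

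Of the replication-dependent genes, 2 were higher and 2 lower with NR4A1 CEAA. H2BC13 fell here too, at 4.83 and 4.49 with NR4A1 CEAA, against 5.38, 5.30 and 5.07 with GFP. The difference was -0.59 ± 0.13 (SE, 1.51-fold lower, limma adjusted p = 0.0187), with adjusted p of 0.136 when NR4A1 CEAA replicate 2 was dropped, and of 0.0574 and 0.0559 for GFP replicates 1 and 2. Both NR4A1 comparisons use the same GFP arrays, so the shared direction of H2BC13 is not independent evidence.

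H2BC6, another H2B gene and one read by an _x_at probe set, stood at 6.10 and 6.09 with NR4A1 CEAA, against 6.44, 6.49 and 6.46 with GFP. Arrays within a group were nearly alike, and the difference was -0.37 ± 0.07 (SE, 1.29-fold lower, limma adjusted p = 0.00977), with adjusted p of 0.0682 and 0.0638 when either NR4A1 CEAA array was left out.

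H2AC14, a replication-dependent H2A gene with an _x_at probe set, read 7.58 and 7.45 with NR4A1 CEAA, against 7.22, 7.07 and 7.33 with GFP. The difference was 0.31 ± 0.08 (SE, 1.24-fold, limma adjusted p = 0.0374). This call was lost in 6 of the 8 fits with 1 array left out, with adjusted p up to 0.221 without NR4A1 CEAA replicate 1. H1-4, a linker histone gene below the array median, read 4.48 and 4.65 with NR4A1 CEAA, against 4.25, 3.95 and 4.14 with GFP. It differed by 0.45 ± 0.10 (SE, 1.37-fold, limma adjusted p = 0.0165), and by adjusted p of 0.051 and 0.121 when either NR4A1 CEAA array was left out. Values this low are not shown to be above background.

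The remaining 38 replication-dependent genes did not pass against GFP with NR4A1 CEAA. Their largest difference was that of H3C6, at 6.11 and 6.20 with NR4A1 CEAA, against 5.75, 5.57 and 5.71 with GFP (0.48 ± 0.16, SE, limma adjusted p = 0.0754). By family the median difference was 0.10 in H1, 0.06 in H2A, -0.07 in H2B, -0.08 in H3 and -0.02 in H4. With NR4A1 WT it was -0.09, 0.06, 0.02, 0.05 and 0.11 in the same order. H2BC12, the brightest replication-dependent gene, read 8.20, 8.24 and 8.34 with NR4A1 WT, 8.19 and 8.25 with NR4A1 CEAA, and 8.22, 8.22 and 8.29 with GFP. Its intervals against GFP were -0.11 to 0.15 and -0.16 to 0.13. H2BC1, the dimmest and known mainly from testis, read 2.95 to 3.40 over the 8 arrays and passed in no comparison.

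**Figure D2:**
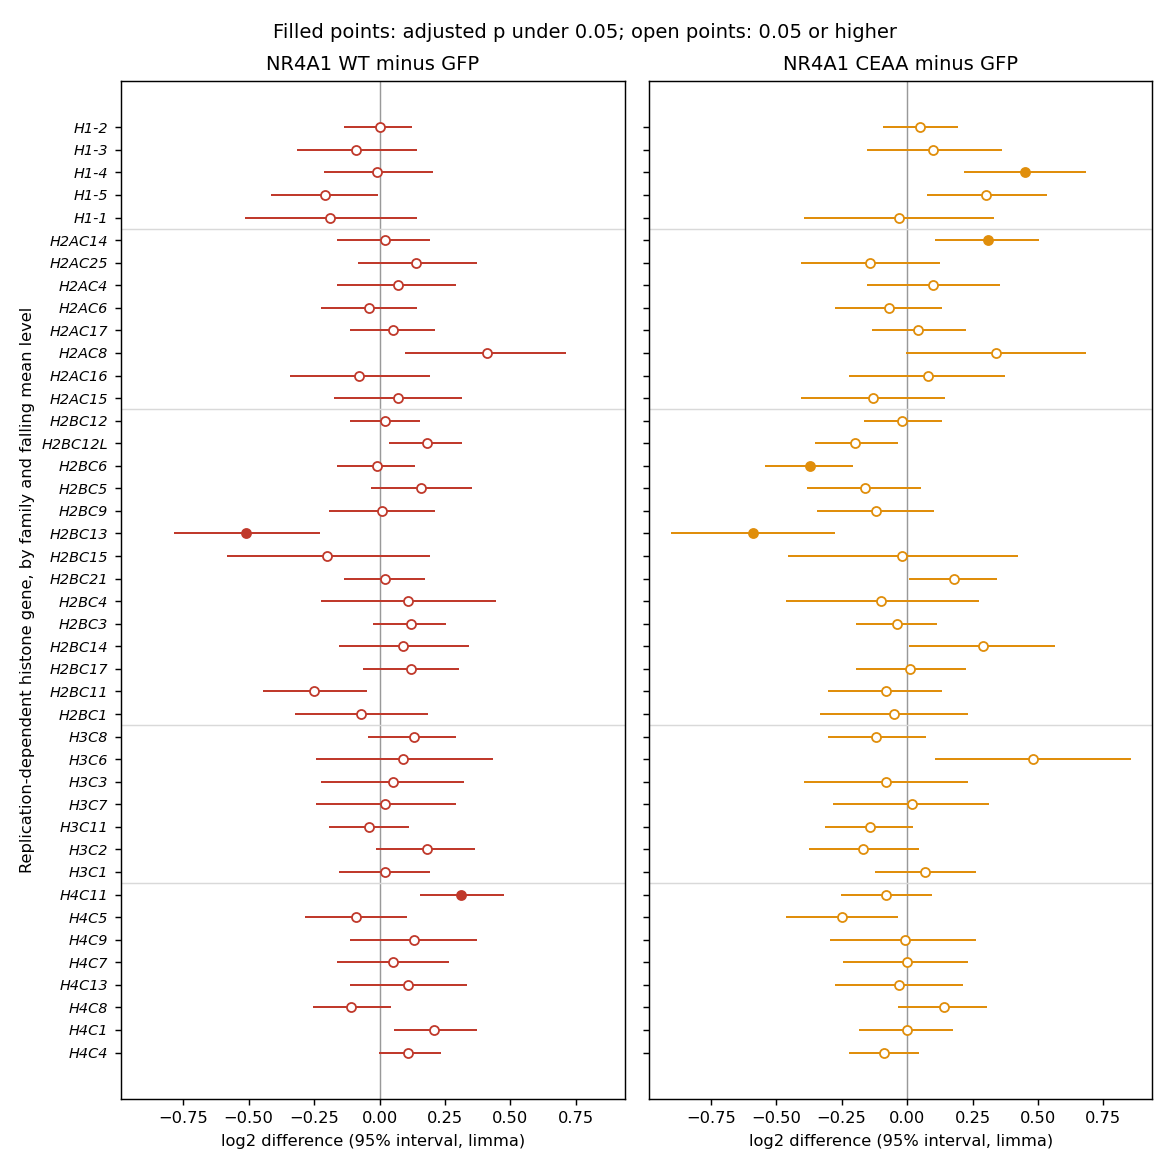
Log2 differences of the 42 replication-dependent histone genes with NR4A1 WT minus GFP (left) and NR4A1 CEAA minus GFP (right), as limma estimates with 95% intervals, by family and falling mean level. Filled points passed an adjusted p of 0.05: H4C11 and H2BC13 with NR4A1 WT, and H1-4, H2AC14, H2BC6 and H2BC13 with NR4A1 CEAA.

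**Figure D3:**
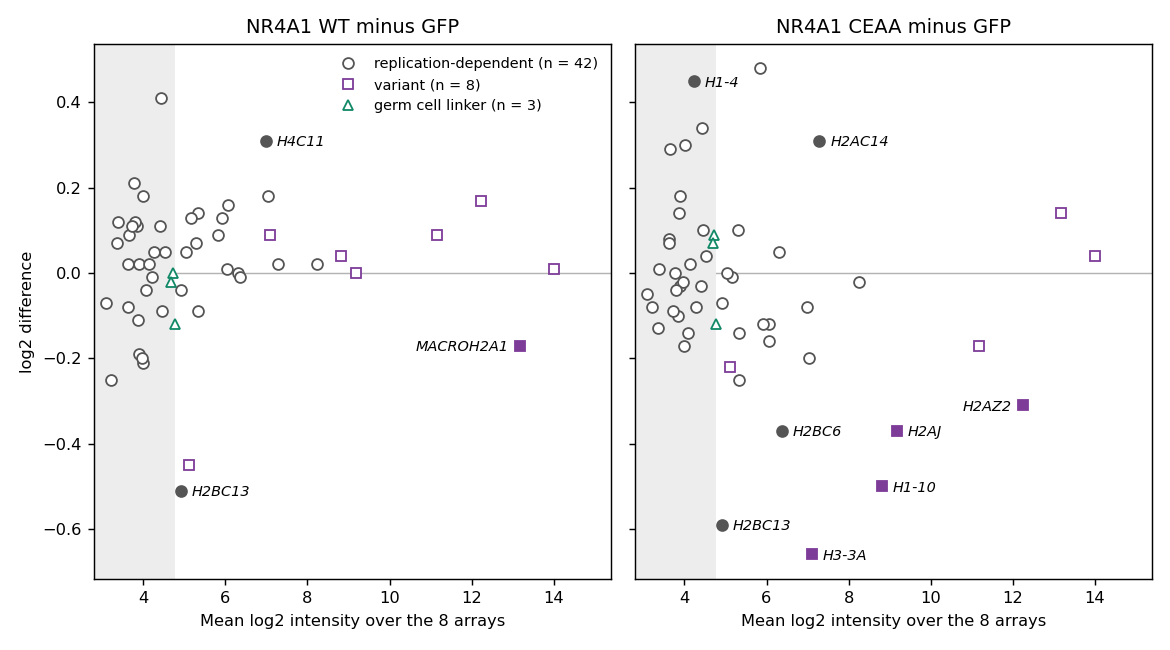
Log2 difference against GFP over the mean log2 intensity of the 8 arrays for all 53 members, with NR4A1 WT (left) and NR4A1 CEAA (right). Symbols give the class, filled symbols passed an adjusted p of 0.05, and the shaded band is below the lowest array median of 4.755, where 24 replication-dependent genes lie in every array.

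The third question was how the wild type and the mutant receptor differ from each other. In limma 16 of 53 members passed (30.2%), 11 higher and 5 lower with NR4A1 WT, against 31.5% of all genes, 18.0% higher and 13.4% lower. Without _x_at and _s_at probe sets, which leaves 40 members, 1 was higher and 3 lower. The 16 were 10 of 42 replication-dependent genes (23.8%) and 6 of 8 variants (75.0%). The median difference was 0.06 in the replication-dependent genes and 0.32 in the variants, beside 0.03 over all genes. Among the 25 members past the filter on dim probe sets 12 passed (48.0%, 6 of them variants), against 50.6% of all genes so filtered, so by count the members as a whole stood near the background.

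Among the variants, H3-3A read 7.19, 7.45 and 7.31 with NR4A1 WT, against 6.73 and 6.40 with NR4A1 CEAA. All NR4A1 WT arrays were higher, by 0.75 ± 0.11 (SE, 1.68-fold, limma adjusted p = 0.00133). H1-10 read 8.89, 9.06 and 8.93 with NR4A1 WT, against 8.46 and 8.37 with NR4A1 CEAA, a difference of 0.54 ± 0.07 (SE, 1.46-fold, limma adjusted p = 0.000599). Neither gene had overlapping groups.

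Of the 6 H2A variants, 3 were higher with NR4A1 WT than with NR4A1 CEAA and 1 lower. H2AZ2 differed by 0.48 ± 0.06 (SE, 1.39-fold, limma adjusted p = 0.000438). This turned to -0.28 (limma adjusted p = 0.0321) without _x_at and _s_at probe sets, and was 0.11 (limma adjusted p = 0.135) by the mean of its probe sets. H2AJ differed by 0.38 ± 0.10 (SE, 1.30-fold, limma adjusted p = 0.0205, and 0.149 without NR4A1 CEAA replicate 1). In the same pair of alternatives it was -0.13 (limma adjusted p = 0.449) and 0.10 (limma adjusted p = 0.242), and a fit on the 2 groups alone gave limma adjusted p = 0.0583. The -0.13 comes from a probe set below the array median. H2AX read 11.29, 11.28 and 11.22 with NR4A1 WT, against 10.98 and 11.03 with NR4A1 CEAA, and differed by 0.26 ± 0.06 (SE, 1.20-fold, limma adjusted p = 0.00741, and 0.0644 without NR4A1 CEAA replicate 1). MACROH2A1 was lower with NR4A1 WT, by -0.32 ± 0.05 (SE, 1.25-fold, limma adjusted p = 0.0021). Without _x_at and _s_at probe sets its difference was -0.06 (limma adjusted p = 0.784), and by the mean of its probe sets -0.40 (limma adjusted p = 0.00159). That -0.06 is the value of its brightest _at probe set. Dimmer _at sets of the gene gave -1.07, -1.16 and, at a mean of 3.12 below the array median, 0.39. H2AZ1 and MACROH2A2 differed by -0.02 and -0.22 and did not pass, with intervals of -0.15 to 0.10 and -0.71 to 0.26.

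Among the replication-dependent genes, H4C11, H2BC12L, H2BC6, H3C2, H2BC5 and H4C4 were higher with NR4A1 WT than with NR4A1 CEAA, by 0.20 to 0.39. All of them but H4C4 were read by _x_at or _s_at probe sets. Such probes may match several transcripts, so these need not be changes of separate genes. H4C11 read 7.21, 7.27 and 7.11 with NR4A1 WT, against 6.78 and 6.83 with NR4A1 CEAA (0.39 ± 0.07, SE, limma adjusted p = 0.00449). H2BC12L, an H2B gene outside the large clusters, read 7.13, 7.29 and 7.19 with NR4A1 WT, against 6.84 and 6.82 with NR4A1 CEAA (0.37 ± 0.07, SE, limma adjusted p = 0.0031). H2BC6 differed by 0.36 ± 0.07 (SE, limma adjusted p = 0.00573), and none of these genes had overlapping groups.

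H1-5, H1-4, H2AC14 and H4C8 were lower with NR4A1 WT, where H2AC14 and H4C8 were read by an _x_at and an _s_at probe set. H1-5, a replication-dependent linker histone gene, read 3.67, 3.95 and 3.77 with NR4A1 WT, against 4.34 and 4.29 with NR4A1 CEAA, a difference of -0.52 ± 0.10 (SE, 1.43-fold lower, limma adjusted p = 0.00473). H1-4 differed by -0.46 ± 0.10 (SE, limma adjusted p = 0.00827, and 0.0759 without NR4A1 CEAA replicate 2). All 5 replication-dependent H1 genes had a negative difference, with a median of -0.19, beside 8792 of all 19775 genes with a negative one. Only H1-2 of these H1 genes was above the array median, and it differed by -0.06 (limma adjusted p = 0.545). The others were at or below that median in every array. Both called H1 genes, with H3C2, H4C4 and H4C8, were dimmer than the array median and are not shown to be above background. Calls were lost with single arrays left out for H2AC14 (adjusted p up to 0.193), H2BC5 (up to 0.162), H3C2 (up to 0.138), H4C4 (up to 0.142) and H4C8 (up to 0.168).

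By Rank Product, the test of the study's methods, at a q under 0.05, 0 members were called for NR4A1 WT against GFP, 1 (H3-3A, lower) for NR4A1 CEAA against GFP and 0 for NR4A1 WT against NR4A1 CEAA. Of all genes it called 4.34%, 1.83% and 2.78%.

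Over the 3 comparisons, 36 members passed in none, among them 31 replication-dependent genes, H2AZ1, MACROH2A2 and all 3 germ cell linker genes, and 10 members passed in 2. Such counts were not made over all genes, of which 20.3%, 19.2% and 31.5% passed in the single comparisons, so they describe the members only. The wild type against mutant difference repeats arrays of the other 2 comparisons, so the 3 sets of values are given side by side and not counted as separate support. Seen per array, the median of the 8 variants relative to its GFP mean was -0.032, 0.127 and 0.019 with NR4A1 WT, -0.245 and -0.265 with NR4A1 CEAA, and -0.007, -0.025 and 0.032 with GFP. Both NR4A1 CEAA arrays stood below the other 6. The same median over the 42 replication-dependent genes was 0.002, 0.007 and 0.048 with NR4A1 WT, -0.053 and -0.022 with NR4A1 CEAA, and 0.02, -0.021 and 0.004 with GFP. The variants' median minus that of the replication-dependent genes was -0.01 for NR4A1 WT, -0.24 for NR4A1 CEAA and 0.26 for NR4A1 WT minus NR4A1 CEAA. With _x_at and _s_at probe sets left out, these values were -0.09, -0.12 and -0.16, so the last one turned its sign. That setting compares 5 variants with 32 replication-dependent genes, since H3-3A, H1-10 and H2AX have no other kind of probe set. For the last value the middle variant was H2AJ at -0.13. Its probe set there, at a mean of 4.41, is below the array median and not shown to be above background.

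Variants with several probe sets show how far a gene's value rests on the probe set followed. MACROH2A1 has 7. Probe set 4 by brightness read 6.92, 6.92 and 7.11 with NR4A1 WT, 7.96 and 8.15 with NR4A1 CEAA, and 7.50, 7.54 and 7.55 with GFP. Here NR4A1 WT lay below GFP by -0.55 ± 0.08 (SE) and NR4A1 CEAA above it by 0.52 ± 0.09 (SE), with limma adjusted p over all probe sets of 0.00207 and 0.00599. Probe set 5 behaved alike, at -0.66 ± 0.12 and 0.50 ± 0.13 (SE). Probe set 3 was lower under both, by -0.38 and -0.31, without passing. The dimmest, at 3.12 and so below the array median, went the other way between NR4A1 WT and NR4A1 CEAA.

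For H2AX the dimmer probe sets gave larger changes than the bright one. Probe set 2, at a mean of 6.94, read 7.10, 7.39 and 7.19 with NR4A1 WT, 6.07 and 6.31 with NR4A1 CEAA, and 7.12, 7.11 and 7.20 with GFP. Its NR4A1 CEAA arrays were lower than GFP by -0.95 ± 0.10 (SE, limma adjusted p over all probe sets = 0.0011), and probe set 3 by -0.49 ± 0.11 (SE, 0.0189), while probe set 4 differed by 0.03.

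For H2AZ2 the probe sets disagreed. The second, at a mean of 11.91, read 11.94, 11.70 and 11.85 with NR4A1 WT, 12.12 and 12.10 with NR4A1 CEAA, and 11.86, 11.85 and 11.85 with GFP. It stood 0.26 ± 0.08 (SE) above GFP with NR4A1 CEAA (limma adjusted p over all probe sets = 0.0645) and, for NR4A1 WT against NR4A1 CEAA, was lower by -0.28 ± 0.08 (SE, 0.033), opposite to the first. The other 2 differed from GFP by -0.12 and -0.11. For H2AJ the first pair of probe sets, of like brightness, were both lower with NR4A1 CEAA (-0.37 and -0.48). The dim pair, at means of 4.41 and 4.07 below the array median, were not (0.08 and -0.05). The dimmest was lower with NR4A1 WT than with GFP (-0.40 ± 0.09, SE, limma adjusted p over all probe sets = 0.0232). It was also lower with NR4A1 WT than with NR4A1 CEAA (-0.35 ± 0.11, SE, 0.039), opposite to the first pair. The H3-3A, H1-10 and H4C11 values each rest on a single probe set.

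**Figure D4:**
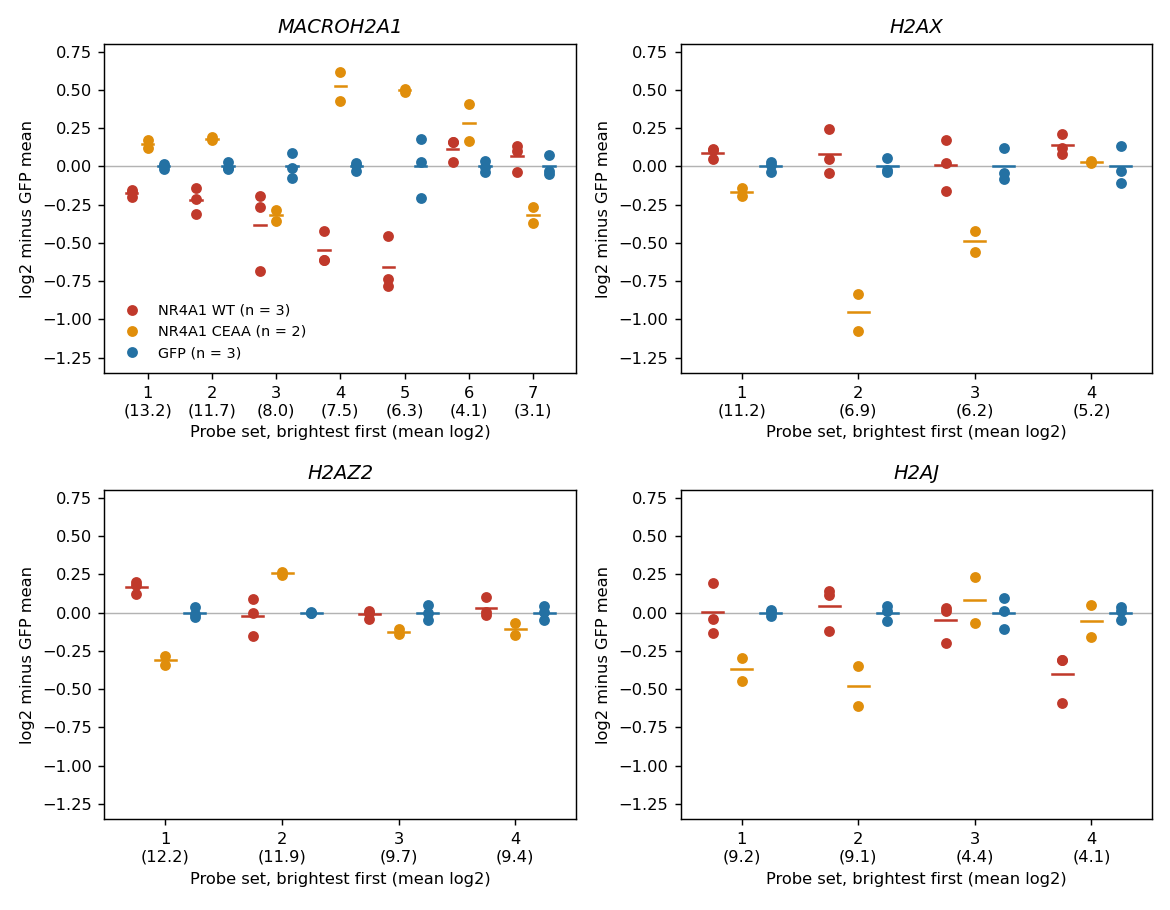
Log2 intensity minus the GFP mean for every probe set of MACROH2A1, H2AX, H2AZ2 and H2AJ, brightest first with its mean log2 intensity below, 1 point per array with group means as lines, for NR4A1 WT (n = 3), NR4A1 CEAA (n = 2) and GFP (n = 3). Probe sets 1, 2, 4 and 5 of MACROH2A1 separate all 3 groups, and the first and second H2AZ2 probe sets move in opposite directions with NR4A1 CEAA (-0.31 and 0.26).

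Genes that make, process and place histones were followed beside the members. Of 27 measured genes for histone message processing and histone gene transcription, 2 were higher and 6 lower with NR4A1 WT against GFP, and 2 higher and 1 lower with NR4A1 CEAA. That is 29.6% and 11.1%, beside 20.3% and 19.2% of all genes, and their median difference was -0.01 and 0.03. With NR4A1 WT against NR4A1 CEAA 4 were higher and 7 lower (40.7%, beside 31.5% of all genes). LSM10, a subunit of the U7 particle that trims the histone message, was lower under both (-0.31 ± 0.06 and -0.49 ± 0.07, SE, limma adjusted p = 0.0113 and 0.00369). ZNF473, another factor of U7 dependent processing, was lower with NR4A1 WT (-0.40 ± 0.08, SE, limma adjusted p = 0.0101), and CCNE2, cyclin E2, was higher (0.46 ± 0.08, SE, limma adjusted p = 0.00551). NPAT and CASP8AP2, which drive histone gene transcription, were higher with NR4A1 CEAA, by 0.23 ± 0.05 and 0.27 ± 0.06 (SE, limma adjusted p = 0.0209 and 0.0172). With NR4A1 WT against NR4A1 CEAA, TUT4, which adds uridines to RNA ends, and NCBP2, of the cap binding complex, were lower (-0.44 ± 0.08 and -0.39 ± 0.05, SE, limma adjusted p = 0.00347 and 0.000754). E2F2, an S phase transcription factor, was higher there (0.37 ± 0.07, SE, limma adjusted p = 0.00388).

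Of 35 histone chaperones and exchange factors measured, 4 were higher and 8 lower with NR4A1 WT (34.3% called), and 1 higher and 13 lower with NR4A1 CEAA (40.0%), with median differences of 0.00 and -0.15. Of all genes 20.3% and 19.2% were called, and of those past the filter on dim probe sets 36.2% and 36.9%. With NR4A1 WT against NR4A1 CEAA 17 were higher and 9 lower (74.3%, beside 31.5% of all genes and 50.6% of those filtered), at a median of 0.06. These differences in share were not tested. DNAJC9, an H3 and H4 chaperone, was higher with NR4A1 WT than with GFP (0.87 ± 0.05, SE, limma adjusted p = 1.94e-05), as was HJURP, the chaperone of CENP-A (0.38 ± 0.07, SE, limma adjusted p = 0.00699). RUVBL1, an ATPase of the SRCAP and TIP60 complexes, was lower (-0.38 ± 0.05, SE, limma adjusted p = 0.00133). ASF1B, which hands H3 and H4 to the assembly factors, was lower with NR4A1 CEAA (-0.71 ± 0.07, SE, limma adjusted p = 0.000967). SRCAP and VPS72, subunits of the complex that exchanges H2A.Z, were lower there too, by -0.58 ± 0.14 and -0.51 ± 0.06 (SE, limma adjusted p = 0.0243 and 0.00193). With NR4A1 WT against NR4A1 CEAA, DNAJC9 (1.02 ± 0.06), ASF1B (0.97 ± 0.07) and KAT5, the TIP60 acetyltransferase (0.64 ± 0.06, SE), were higher, with limma adjusted p = 1.66e-05, 4.61e-05 and 0.000133.

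Of 27 S phase genes measured, 7 were higher and 3 lower with NR4A1 WT against GFP, and 2 higher and 8 lower with NR4A1 CEAA, 37.0% called in each, with medians of 0.06 and 0.00. Those shares stand beside 20.3% and 19.2% of all genes and 36.2% and 36.9% of genes past the filter on dim probe sets. With NR4A1 WT against NR4A1 CEAA 10 were higher and 4 lower (51.9%, beside 31.5% and 50.6%). CDC6, a loader of the replicative helicase, was higher with NR4A1 WT (0.52 ± 0.06, SE, limma adjusted p = 0.000805) and UNG, the uracil glycosylase, lower (-0.53 ± 0.07, SE, limma adjusted p = 0.000867). MCM5, a helicase subunit, and GINS2 were lower with NR4A1 CEAA (-0.44 ± 0.05 and -0.36 ± 0.05, SE, limma adjusted p = 0.00162 and 0.00389), and CCNA2, cyclin A2, was higher (0.34 ± 0.10, SE, limma adjusted p = 0.0464). With NR4A1 WT against NR4A1 CEAA, CDC6 (0.83 ± 0.07) and MCM5 (0.71 ± 0.05) were higher and UNG lower (-0.82 ± 0.07, SE), with limma adjusted p = 0.000103, 4.58e-05 and 0.000118. The lists share a few genes, CCNE2 among them. Whether the share of cells in S phase differed between groups was not tested.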

How the data were processed

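Total RNA of Kasumi-1 cells was taken 6 h after electroporation and hybridised to 8 Affymetrix U133 Plus arrays (3 NR4A1 WT, 2 NR4A1 CEAA, 3 GFP). The authors normalized probe intensities by RMA in RMA Express (version not given in the sources used here) and deposited log2 values. All arrays were normalized together, so an even shift of all transcripts is not seen. Of 54613 probe sets, 41091 are listed with 1 gene symbol, 1801 with several and 11721 with none. Probe sets with 1 symbol were kept, and the one with the highest mean over the 8 arrays stood for each of 19775 genes. All 53 members matched RefSeq by gene ID. Of 82 protein-coding RefSeq genes that fit the rule, 29 have no probe set of their own here, H3-3B among them. Depth does not apply to arrays, and their number limits the precision.

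The 3 groups were fitted in 1 limma model (limma 3.58.1, R 4.3.3) with empirical Bayes moderation and Benjamini-Hochberg adjustment over all 19775 genes, and an adjusted p under 0.05 was a call. Probe sets of a gene were fitted over all probe sets with 1 symbol. The methods' Rank Product test (100 permutations) was an alternative. Others were an intensity trend, array weights, fits on 2 groups, a filter on dim probe sets, further centring or quantile normalization, a replicate block, other probe set rules, a threshold of 0.01 and each array left out. The script was tested on simulated data. Replicates sharing a number did not deviate together (correlations of -0.041 to 0.086), so numbers were not used as pairs. The genes described are all variants, the up to 10 replication-dependent members of largest difference per direction among those called, the brightest and the dimmest such member, and the 3 genes of largest difference among those called in each list. H3C6 and H2AX probe sets were described after their values were seen. Members and lists were chosen with earlier results of these data known.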

Additional observations from a re-analysis of the deposited data

Results flagged for a closer look

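Against GFP, 7 members had differences of opposite sign with NR4A1 WT and with NR4A1 CEAA, with at least 1 of them called, and passed the direct limma test of NR4A1 WT minus NR4A1 CEAA. The same count was not made over all genes. H3-3A differed by 0.75 (0.09 with NR4A1 WT and -0.66 with NR4A1 CEAA against GFP). H1-10 differed by 0.54 (0.04 and -0.50). H2AZ2 differed by 0.48 (0.17 and -0.31), and its second probe set ran the other way. H4C11 differed by 0.39 (0.31 and -0.08), and H2AJ by 0.38 (0.00 and -0.37), where the dimmest H2AJ probe set ran the other way. H1-4 differed by -0.46 (-0.01 and 0.45) at a level not shown to be above background. MACROH2A1 differed by -0.32 (-0.17 and 0.14), and by -0.06 without _x_at and _s_at probe sets, where its probe set 3 stood for it. Its probe sets 4 and 5 differed by -1.07 and -1.16, and its dimmest, below the array median, by 0.39. For H3-3A, H1-10, H2AJ and H1-4 the NR4A1 WT difference was no larger than its SE, so its sign does not show a change opposite to that with NR4A1 CEAA. H4C11 and MACROH2A1 did not pass with NR4A1 CEAA (limma adjusted p = 0.525 and 0.0917), nor H2AZ2 with NR4A1 WT (0.0554). By the probe set followed, none of the 7 was called against GFP in both directions. Probe sets 4 and 5 of MACROH2A1 were. The effects against GFP share the GFP arrays.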

How the results depend on the processing

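Of 27 calls of members, 8 were kept under every limma setting that could be run. Of those 8, 7 lie on genes with only _x_at or _s_at probe sets, for which the setting without them could not be fitted. The other call, that of H1-5, rests on a single _at probe set, so that setting left its values unchanged. H1-5 was also below the array median and is not shown to be above background. Rank Product, with 2 to 3 arrays a group, lost 26 of them and kept H3-3A for NR4A1 CEAA against GFP (q = 0.0259). For NR4A1 WT against GFP, 3 members were called. The count was 5 with an intensity trend and 5 with the filter on dim probe sets, 1 without _x_at and _s_at probe sets, 0 by Rank Product and 0 at an adjusted p under 0.01 (10 at an unadjusted p under 0.05), and 1 to 3 with an array left out. Without NR4A1 WT replicate 1, GFP replicate 1 and GFP replicate 2 it was 3, 2 and 1, all higher, where 1 higher and 2 lower were called with all arrays. For NR4A1 CEAA against GFP, 8 were called. The count was 2 without _x_at and _s_at probe sets, 1 by Rank Product, 4 at 0.01, and 2 to 10 with an array left out, where dropping NR4A1 CEAA replicate 2 gave 2, NR4A1 CEAA replicate 1 gave 4 and GFP replicate 2 gave 5. For NR4A1 WT against NR4A1 CEAA, 16 were called. The count was 4 without _x_at and _s_at probe sets (1 higher and 3 lower, where 11 and 5 were called with them), 0 by Rank Product (21 at an unadjusted p under 0.05 in limma), 10 at 0.01, and 10 to 17 with an array left out, 10 without NR4A1 CEAA replicate 2. With _x_at and _s_at probe sets left out 40 members remain (5 variants, without H3-3A, H1-10 and H2AX), which lowers these counts by construction. Replicate numbers did not pair the arrays, and a fit with the replicate number as a block gave 1, 6 and 14 calls.

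The variants' median minus that of the replication-dependent genes was -0.01 for NR4A1 WT against GFP (-0.09 without _x_at and _s_at probe sets, -0.03 to 0.05 with an array left out). It was -0.24 for NR4A1 CEAA (-0.12 without those probe sets, -0.26 to -0.19 with an array left out) and 0.26 for NR4A1 WT minus NR4A1 CEAA. The last value was 0.19 with the filter on dim probe sets, 0.05 with the mean of a gene's probe sets, -0.16 without _x_at and _s_at probe sets, and 0.22 to 0.30 with an array left out. Without _x_at and _s_at probe sets, H2AZ2 turned to 0.26 for NR4A1 CEAA against GFP and -0.28 for NR4A1 WT minus NR4A1 CEAA, and H2AJ to 0.08 and -0.13. The H2AJ values there come from a probe set below the array median, not shown to be above background. With those sets left out, MACROH2A1 was read by its probe set 3 and shrank to -0.06 for NR4A1 WT minus NR4A1 CEAA (limma adjusted p = 0.784). Its probe sets 4 and 5, also _at sets, gave -1.07 and -1.16 (limma adjusted p over all probe sets = 7.48e-05 and 0.000373). The dimmest, an _at set below the array median, gave 0.39. These changes follow from following another probe set, and which is right was not tested. A dim filter also shortens the list of genes over which p is adjusted. Levels near the array median limit what the dim members can show.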

Other observations

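A further 28 probe sets are listed with several symbols, at least 1 of them a histone gene. With limma p adjusted over all 54613 probe sets of the array, 0 were higher and 1 lower with NR4A1 WT against GFP, 0 higher and 3 lower with NR4A1 CEAA against GFP, and 5 higher and 0 lower with NR4A1 WT against NR4A1 CEAA. That is 3.57%, 10.7% and 17.9%, beside 10.6%, 12.7% and 22.1% of all probe sets. Of the 8 that list H3-3B, 1 was lower with NR4A1 WT and 2 with NR4A1 CEAA against GFP, and 1 was higher with NR4A1 WT against NR4A1 CEAA. Their NR4A1 CEAA differences ran over -0.40 to 0.25, with a median of -0.11.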
